A study of Mus musculus with 2 samples.

Results

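The genes described here encode brakes on the small GTPase Ras: the Sprouty proteins (Spry1, Spry2 and Spry4), the Sprouty-related Spred proteins (Spred1 and Spred2) and the Ras GTPase-activating proteins, or RasGAPs (Rasa1, Rasa2, Rasa3, Rasal3 and Nf1). These 10 genes were picked by name, with earlier results of these data known, out of 24013 gene symbols in the table of normalized read counts, and all 10 were found there. The cells were naive CD8 T cells from the spleens of C57BL/6 mice, stimulated for 24 hours with plate-bound antibodies against CD3 and CD28. One group, labelled WT_Stim, is wild type and comes from animals of 7 weeks. The other, labelled Z_Stim, has the genotype DGKζ-/- and comes from animals of 6 weeks; it lacks diacylglycerol kinase ζ. Each group is 1 library, the labels give no number of animals pooled, and unstimulated cells were not analysed here. No difference below therefore has a replicate check, and no p-value was computed.

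Ras is active when it carries GTP and inactive when it carries GDP. In T cells the antigen receptor raises diacylglycerol, which recruits the exchange factor RasGRP1 to load Ras with GTP, and active Ras starts the Raf, MEK and ERK kinase cascade. DGKζ removes diacylglycerol by phosphorylating it. RasGAPs return Ras to its GDP state by speeding up GTP hydrolysis. Sprouty and Spred proteins restrain the same cascade, and several of their genes are themselves induced by ERK, which makes them feedback inhibitors.

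The promoters of Spry1, Spry2 and Rasa1 are shown because these 3 genes had the lowest ratios of deficient to wild-type reads among the 10. Each is the 250 bases before the gene's start in RefSeq (build GRCm38.p6), 5′ to 3′ on the gene's strand. Capitals mark matches, on either strand, to 8 motifs of factors that respond to receptor signalling or bind many promoters: ETS (CCGGAAG), AP-1 (TGANTCA), CRE (TGACGTCA), EGR (GCGNGGGCG), the E-box (CACGTG), the NFAT core (GGAAA), the GC box (GGGCGG) and the serum response factor's CArG box.
Spry1, chr3:37639697-37639946, + strand: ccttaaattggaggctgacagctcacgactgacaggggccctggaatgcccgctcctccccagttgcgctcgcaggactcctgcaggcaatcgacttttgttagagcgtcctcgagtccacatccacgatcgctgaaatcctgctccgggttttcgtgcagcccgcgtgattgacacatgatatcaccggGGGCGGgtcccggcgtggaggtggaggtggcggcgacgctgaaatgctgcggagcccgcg
Spry2, chr14:105896820-105897069, - strand: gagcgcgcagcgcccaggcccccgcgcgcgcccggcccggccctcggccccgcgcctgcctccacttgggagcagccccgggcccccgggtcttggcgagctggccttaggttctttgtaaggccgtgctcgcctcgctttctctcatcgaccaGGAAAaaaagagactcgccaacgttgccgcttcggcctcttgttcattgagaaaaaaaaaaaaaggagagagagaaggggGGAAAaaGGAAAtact
Rasa1, chr13:85289487-85289736, - strand: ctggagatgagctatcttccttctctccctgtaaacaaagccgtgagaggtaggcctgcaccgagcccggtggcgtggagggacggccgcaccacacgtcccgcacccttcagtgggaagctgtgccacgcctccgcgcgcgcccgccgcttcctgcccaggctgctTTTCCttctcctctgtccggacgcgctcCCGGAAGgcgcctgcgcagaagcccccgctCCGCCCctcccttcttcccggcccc
The Spry2 promoter held 3 NFAT core matches and no match to the other motifs. At least 1 NFAT core was found in 55.6% of the 32851 promoters searched, and the share with 3 was not computed. The Spry1 promoter held a single GC box, a motif of 32.7% of promoters. The Rasa1 promoter held 1 ETS match, found in 6.91% of promoters, beside 1 NFAT core and 1 GC box. None of the 3 held the AP-1, CRE, EGR, E-box or CArG letters, and these matches are descriptions of the letters in the window, not binding sites. The read counts themselves were made on another build (mm9), and no position was carried between the builds.

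Summed over 1 transcript row per gene, the libraries held 37211969 reads (wild type) and 13464169 reads (deficient). Their ratio is 2.76, so the deficient library limits the precision. The targeted gene, Dgkz, had 6714 normalized counts in wild-type and 2591 in deficient cells (2.59-fold lower, 2.46 to 2.74), and the labels do not say which part of it was deleted. Markers of the labelled cell type were abundant, with Cd8a at 13090.5 and 8455 normalized counts. The 6 CD8 T cell markers summed to 37302 and 28719, and 5 of 6 were lower in the deficient library. The 6 B cell markers were all present and all lower there (sums of 1450 and 813), as was Cd4 (171 and 53.2). The other CD4 T cell marker, Zbtb7b, was at 57.1 and 48.0, with a fold interval (0.775 to 1.88) that includes 1. Klrd1, listed as an NK marker, was also lower (395 and 134), while the NK markers Ncr1 and Klrb1c had only 7 and 9 wild-type reads. Of the other NK, myeloid, erythroid, platelet, endothelial and stromal markers Mpeg1 was highest (127 and 185), and Ncr1, Klrb1c, Cd14, Pf4, Kdr and Col1a1 had 0 reads in the deficient library. Whether these other cells contributed to the values below was not tested, and in bulk RNA fewer cells of a type and less RNA per cell cannot be told apart. Sex-linked RNAs also differed: Xist stood at 14.0 and 9206 normalized counts, and Ddx3y, Eif2s3y, Kdm5d and Uty had 1579 to 3759 wild-type reads and 0 deficient reads. Genotype, age and sex cannot be told apart in these libraries.

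Most of the Ras brakes were lower in the deficient library, Spry2 by the largest fold of normalized counts, while Spry4, Rasa2 and Nf1 stood slightly to moderately higher. Differences are given as log2((deficient + 10)/(wild type + 10)) of the normalized counts, called the log2 ratio, where the pseudocount of 10 pulls scarce genes toward 0. Folds are plain ratios of normalized counts, each with an exact 95% Clopper-Pearson interval that covers counting error only. A gene was called 2-fold different where its log2 ratio reached 1 or -1, among the 10518 genes whose mean over the libraries reached 50 normalized counts. All 10 brakes passed that minimum, although Spry2 was below it in the deficient library. By this rule 1 of the 10, Spry2, was different, against 2.6% of all genes compared. It was lower, as were 1.29% of those genes, and 0 members were higher, against 1.3% (at equal library totals 115 genes were higher and 179 lower, in place of 137 and 136). Of the 10 members 7 had a log2 ratio below 0, against 41.8% of all compared genes. Their median log2 ratio was -0.36, beside 0.055 over all compared genes. The 6 CD8 T cell markers had a similar median of -0.38, with 5 below 0 and 1 above. The counting interval of the fold left out 1 for 9 of the 10 members, but it did so for 57.5% of all compared genes, since it holds no variation between animals or cultures.

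**Figure D1:**
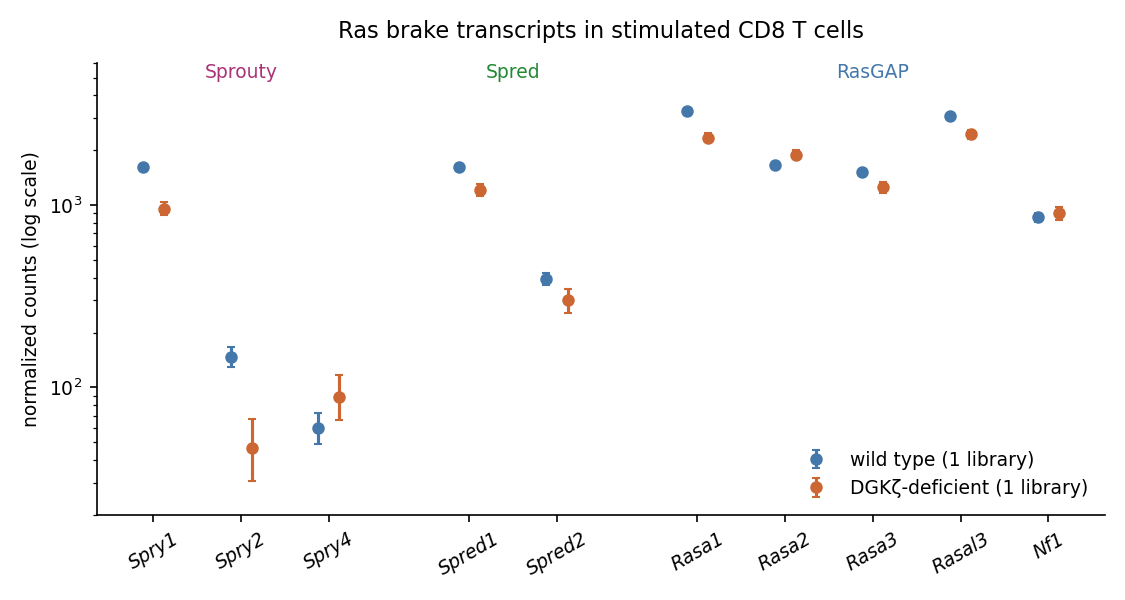
Normalized counts (log scale) of the 10 Ras brake genes in the wild-type library (blue) and the DGKζ-deficient library (orange), grouped by family; bars are exact 95% Poisson intervals of the reads. Spry2 is at 148 in the wild-type and 46.3 in the deficient library, and Spry2 and Spry4 are the lowest of the 10 in both libraries.

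The 3 Sprouty genes did not move as a unit. Spry2, a feedback inhibitor of receptor-driven ERK signalling, had 253 wild-type reads, or 148 normalized counts, and 27 reads from the deficient cells, or 46.3 normalized counts. The deficient value was 3.19-fold below the wild-type value (2.14 to 4.93), with a log2 ratio of -1.48, and only 0.276% of compared genes had a lower ratio. The counting interval of this log2 ratio, -1.99 to -0.991, reached just inside the threshold of -1. Genes at such levels scatter more: among the 1775 compared genes with a mean within 2-fold of that of Spry2, 3.61% were called lower, and their median log2 ratio was -0.045. Spry1, the most abundant Sprouty gene in these cells, stood at 1609 and 955 normalized counts. It was 1.68-fold lower (1.54 to 1.85), below 97.0% of compared genes in its log2 ratio of -0.75, and was not called. In the annotation of GENCODE M21, 24.4% of the exonic bases of Spry1 overlap Gm42922, a transcript on the opposite strand, and the library kit does not mark strand, so reads of the pair cannot be separated there.

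Spry4, whose protein shares the cysteine-rich domain of the family, went the other way. Wild-type cells gave 103 reads, or 60.1 normalized counts, and deficient cells 52 reads, or 89.2 normalized counts. This is 1.48-fold higher without DGKζ, and its interval of 1.04 to 2.09 came close to 1. Its log2 ratio was 0.50, and it was not called. The 3 genes summed to 1816 and 1091 normalized counts and were 1.67-fold lower as a sum (1.53 to 1.82), a value carried by Spry1.

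Shares of reads within a family do not depend on how the libraries were scaled to each other. Each share does depend on the levels of the other genes of the family. Spry2 took 8.12% of the Sprouty reads in wild-type cells (7.19 to 9.14) and 4.25% in deficient cells (2.82 to 6.12). Spry4 took 3.31% (2.71 to 3.996) and 8.18% (6.17 to 10.6). For each of these genes the intervals of the libraries did not overlap, whereas the share of Spry1, 88.6% and 87.6%, had overlapping intervals. Here and below these intervals hold counting error only, and intervals of that kind are easily left. That of the fold left out 1 for 57.5% of all compared genes. In the wild-type library Spry2 had 2.46 reads for each Spry4 read (1.95 to 3.12), and in the deficient library 0.519 (0.314 to 0.842), so the order of the pair by reads was inverted. The number of Spry1 reads per Spry2 read went from 10.9 (9.58 to 12.5) to 20.6 (14.0 to 31.6).

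**Figure D2:**
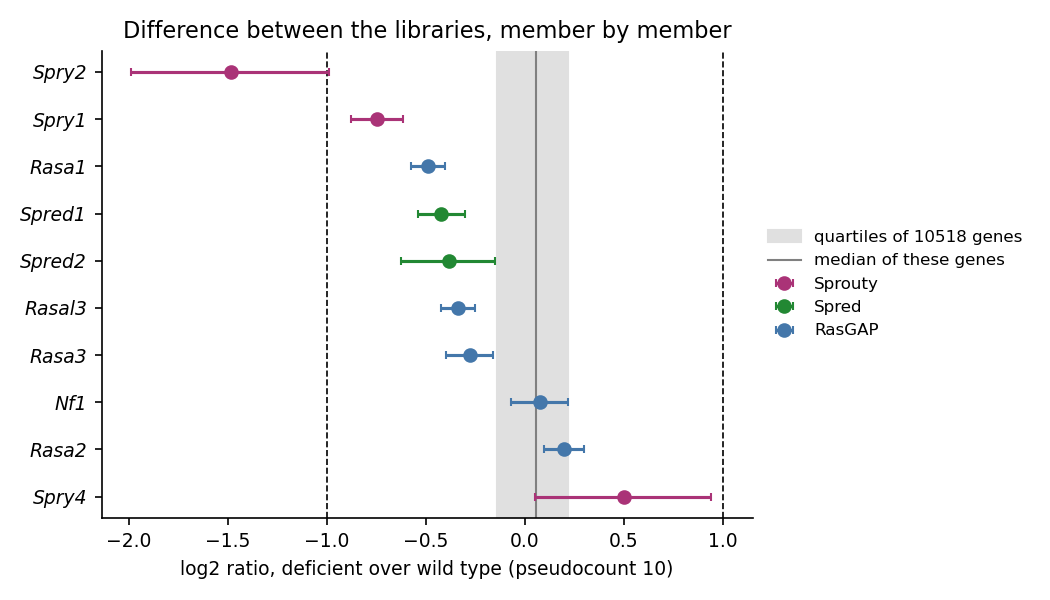
Log2 ratio of deficient over wild type for each member, coloured by family; bars are exact 95% counting intervals, the grey band and line are the quartiles (-0.14 and 0.22) and median (0.055) of 10518 compared genes, and dashed lines mark 2-fold. Spry2 at -1.48 lies past the line, with a bar that ends at -0.991, and Spry4, Rasa2 and Nf1 lie above 0.

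The Spred genes kept their proportion. Spred1, whose protein binds neurofibromin and brings it to the membrane, had 1619 and 1206 normalized counts and was 1.34-fold lower in the deficient library (1.24 to 1.46). Spred2, which also inhibits the Ras to Raf step, stood at 395 and 300.1, 1.32-fold lower (1.11 to 1.56). Their log2 ratios of -0.42 and -0.38 fell outside the quartiles of all compared genes (-0.14 and 0.22) and short of 2-fold. Spred1 took 80.4% of the Spred reads in wild-type cells (79.0 to 81.7) and 80.1% in deficient cells (77.3 to 82.7), which do not differ beyond counting error. The table holds a second transcript row for Spred1, which was lower in level, at 332 and 302 normalized counts, and nearer to equal between the libraries. Its log2 ratio was -0.13, with a fold interval (0.927 to 1.31) that includes 1 and overlaps that of the first row, and the difference between the rows was not tested. The other 9 genes have a single row each.

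Of the RasGAP genes, 3 were lower in the deficient library and 2 were not. Rasa1, a RasGAP with SH2 domains that bind phosphorylated receptors and adaptors, had the largest difference of the family. Its 3299 and 2348 normalized counts make it 1.41-fold lower (1.32 to 1.49), with a log2 ratio of -0.49. An overlap with the opposite-strand gene Ccnh covers 0.164% of its exonic bases. Rasal3, a RasGAP of blood cells, stood at 3087 and 2442 normalized counts and was 1.26-fold lower (1.19 to 1.34). An antisense transcript covers 13.0% of its exonic bases in GENCODE M21. Rasa3, which acts on both Ras and Rap, had 1519 and 1250.2 normalized counts and was 1.21-fold lower (1.12 to 1.32).

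Rasa2, a RasGAP that limits T cell receptor signalling, stood at 1651 and 1893 normalized counts. It was 1.15-fold higher in the deficient library (1.07 to 1.23), and its log2 ratio of 0.20 lay inside the quartiles of all compared genes. Nf1, which encodes neurofibromin, stood at 855 and 902 normalized counts. Its log2 ratio of 0.076 became -0.013 when the libraries were scaled to equal totals, and the fold interval (0.953 to 1.17) includes 1. The 5 genes together summed to 10412 and 8836 normalized counts and were 1.18-fold lower (1.14 to 1.22), a smaller fold than that of the Sprouty sum, whose counting interval it does not overlap.

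Rasa1 and Rasa2 differed from each other whatever the scaling. Rasa1 took 31.7% of the RasGAP reads in wild-type cells (31.0 to 32.4) and 26.6% in deficient cells (25.4 to 27.8), while Rasa2 took 15.9% (15.3 to 16.4) and 21.4% (20.3 to 22.6). There were 1.999 Rasa1 reads per Rasa2 read in wild-type cells (1.91 to 2.09) and 1.24 in deficient cells (1.14 to 1.34). Nf1 went from 8.22% to 10.2%, Rasal3 from 29.7% to 27.6%, and the share of Rasa3, 14.6% and 14.1%, had overlapping intervals. The share of Nf1 rose although the fold interval of its own counts (0.953 to 1.17) includes 1.

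**Figure D3:**
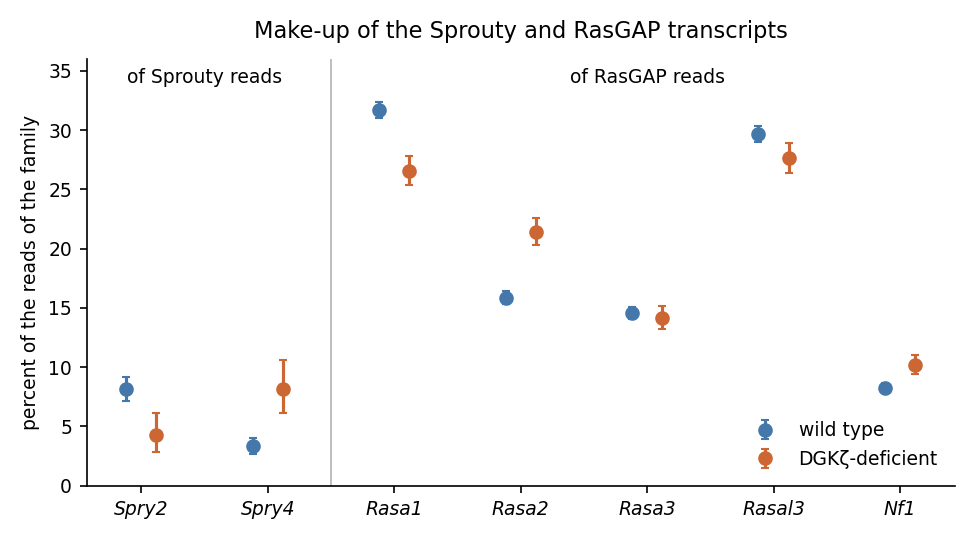
Share of the reads of the 3 Sprouty genes taken by Spry2 and Spry4, and of the 5 RasGAP genes taken by each member, in the wild-type (blue) and deficient (orange) library; bars are exact 95% binomial intervals. Spry2 goes from 8.12% to 4.25% and Spry4 from 3.31% to 8.18%, and Rasa1 and Rasa2 move toward each other.

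Levels were compared between genes after division by transcript length (GENCODE M21 transcripts matched by RefSeq accession), as normalized counts per kilobase. In the wild-type library Rasal3 was highest at 839, followed by Rasa1 at 723, Spry1 at 648, Rasa3 at 345, Rasa2 at 284, Spred1 at 269, Spred2 at 138, Nf1 at 71.8, Spry2 at 70.7 and Spry4 at 12.6. In this order the neighbours Rasa2 and Spred1, and Nf1 and Spry2, did not differ beyond their counting intervals. In the deficient library the first 3 places were the same, at 663 for Rasal3, 515 for Rasa1 and 385 for Spry1. Rasa2 at 326 was then above Rasa3 at 284, which inverts their order in the wild-type library. Spred1 (200.4), Spred2 (105) and Nf1 (75.7) followed. Spry2, at 22.2 normalized counts per kilobase, was far below Nf1 in this library and did not differ beyond counting error from Spry4, at 18.8. Thus Rasal3, Rasa1 and Spry1 were the most abundant brakes of the 10 per length in both libraries.

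Further genes of the families had means of at most 460.1 normalized counts. Of 6 further Sprouty, Spred and RasGAP genes, 4 reached the minimum mean. Of these 0 were called, against 2.6% of all compared genes, and the median log2 ratio was 0.27, beside 0.055. The largest log2 ratios were 0.37 for Rasa4, 0.34 for Rasal2 and 0.21 for Rasal1, each a RasGAP gene and each above 0. The fold intervals of Rasa4 (0.992 to 1.74) and Rasal2 (0.958 to 1.74) include 1, and that of Rasal1 was 1.008 to 1.33. Spry3 had 6 wild-type and 0 deficient reads, and Spred3 had 19 and 0. The median of this list lay on the other side of 0 from that of the 10 brakes, with 3 of its 4 measured members above 0. Most compared genes also lay above 0, with 41.8% below it, so 4 genes say little here.

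The genes that act on or below Ras had higher log2 ratios than Spry2, as had 99.7% of all compared genes. Among 10 measured activators and adaptors, 0 were called, against 2.6% of all compared genes, with a median log2 ratio of -0.020. The exchange factor Sos1 was at -0.44 and the adaptor and ubiquitin ligase Cbl at -0.37, near Spred1 (-0.42) and Spred2 (-0.38). Rasgrp4, an exchange factor bound by diacylglycerol, was at 0.30. The 4 measured Ras GTPases had a median of 0.16 with 0 called, Nras at 0.34, Rras2 at 0.27 and Hras at 0.054. Nras, for example, stood at 4296 and 5428 normalized counts. The 11 measured Raf, MEK and ERK kinases and scaffolds had a median of 0.073 with 0 called. The largest log2 ratios were 0.42 for Map2k1, which encodes MEK1, 0.26 for the scaffold Ksr1 and 0.22 for Pebp1, an inhibitor of Raf.

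Transcripts that ERK induces spread widely in both directions. Of 18 measured, 2 were called lower and 0 higher, against 1.29% and 1.3% of all compared genes. Of the 18, 9 lay above and 9 below 0, and the median log2 ratio was 0.026. The called genes were the early growth response factors Egr3 (log2 ratio -1.87) and Egr1 (-1.01), and the gene furthest the other way was Ier3 (0.95). Egr3 was called at every pseudocount, at -1.78 with a pseudocount of 50 and -1.90 without one. The other calls of this list depend on the pseudocount. Without one Ier3 was at 1.03 and Phlda1 at -1.04, and with a pseudocount of 50 Egr1 was at -0.98. Over these 2 libraries a pattern is a single ratio, and the genes of these lists closest to Spry2 in log2 ratio were Egr1, Egr3 and Phlda1. Egr3 differed from Spry2 by 0.39 on the log2 scale, Egr1 by 0.47 and Phlda1 by 0.62. Phlda1, at 70.6 and 34.3 normalized counts, was as scarce as the lower Sprouty genes.

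**Figure D4:**
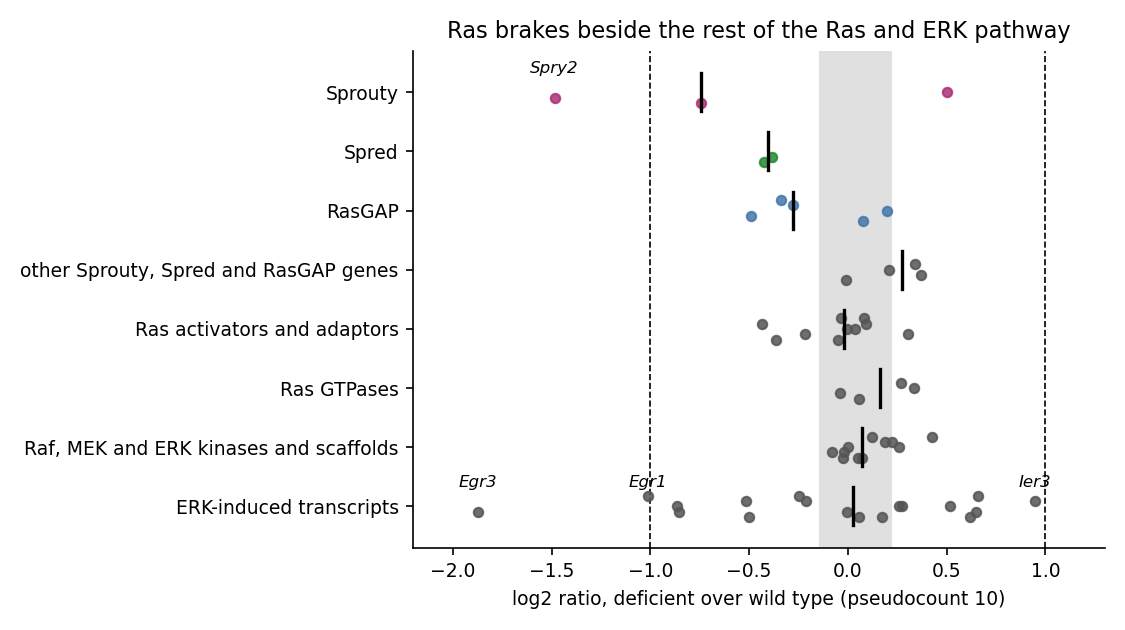
Log2 ratio of deficient over wild type for each measured gene of the 3 brake families and of 5 further lists of the Ras and ERK pathway; each point is 1 gene, black bars are list medians, the grey band spans the quartiles of all compared genes and dashed lines mark 2-fold. Spry2, Egr3 and Egr1 are the genes past a dashed line, and the Ras, Raf, MEK and ERK genes reach at most 0.42.

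In the authors' deposited table the log2 fold change of each of the 10 genes was smaller in absolute size than its log2 ratio here. It was -0.44 for Spry2 and -0.49 for Spry1, beside log2 ratios of -1.48 and -0.75, and thus lower for Spry1. The authors' deposited table gives these rows p-values of 0.068 and 0.058. Every row of the 10 genes has an adjusted p-value of 0.999 in the authors' deposited table, in which 0 of 30433 rows with a value, 0%, lie under 0.05.

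**Figure D5:**
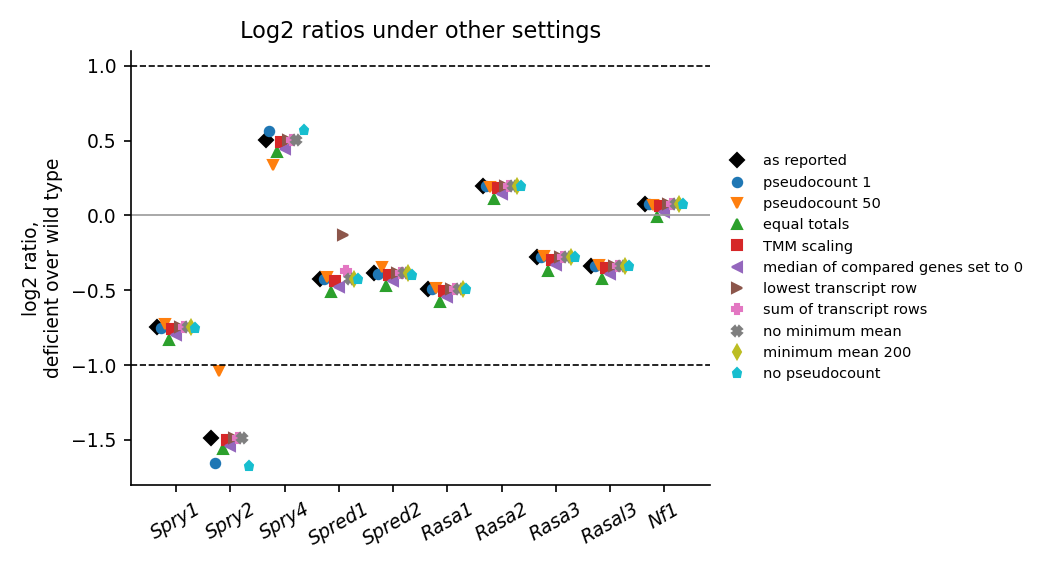
Log2 ratio of deficient over wild type for each of the 10 genes as reported (black) and under 10 other settings of pseudocount, scaling, transcript row and minimum mean; dashed lines mark 2-fold. Spry2 stays between -1.67 and -1.04, Spred1 reaches -0.13 with its lower transcript row, and Nf1 reaches -0.013 at equal totals.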

How the data were processed

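Per the labels' protocols, the NEBNext Ultra RNA kit, which does not mark strand, was used for the libraries. The build mm9, STAR (version 2) and DESeq are named in the submitters' processing notes; the counting program and annotation were not given in the sources used here. Normalized counts were deposited, a signal per RefSeq transcript row and library. All values (100% in each library, relative tolerance 0.0001) were whole multiples of the worth of 1 read, 0.583 and 1.71 normalized counts, so whole reads were recovered. The authors also deposited a table with a log2 fold change, a score and p-values per row; the score was not used. The row with the highest mean stood for each gene, and 1 row of 33018 with shifted values was left out. edgeR 4.0.16 served for TMM scaling; its quasi-likelihood test has no residual degrees of freedom with 1 library per genotype, so no count test was run and it makes no calls. Intervals and log2 ratios were computed with scipy 1.17.1 and tested on simulated data. These intervals hold counting error alone, and reads lacking molecular identifiers do not stand for separate molecules. Members, lists and settings were chosen with earlier results of these data known. Besides the 10 members and Dgkz, the genes named from a list are those called 2-fold different and the 3 with the largest absolute log2 ratio, and the 3 closest to Spry2. Genes below the minimum mean were named after their values were seen, as were the motifs. A gene of the lists is not reported here.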

Additional observations from a re-analysis of the deposited data

How the results depend on the processing

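Other pseudocounts (1, 50 or none), scalings (equal totals, TMM, median set to 0), transcript rows (lowest, sum) and minimum means (none, 200) were tried; the ratio without a pseudocount was added after seeing the data. The count of brakes called lower stayed at 1 except with a minimum mean of 200, which removes Spry2 and Spry4 and leaves 0 of 8. No setting called a brake higher. The log2 ratio of Spry2 lay between -1.67 and -1.04, past 2-fold in all 9 settings that kept it, and that of Spry4 between 0.34 and 0.57. Of the others, Nf1 changed sign (-0.013 at equal totals). The median log2 ratio of the brakes lay between -0.45 (equal totals) and -0.31 (lowest rows). With its lower row, Spred1 took 45.7% and 50.1% of the Spred reads in place of 80.4% and 80.1%. No paired analysis was possible because each genotype has 1 library. Spry2 rests on 27 reads in the deficient library.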
